A study of Mus musculus with 13 samples.

Results

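The transcription factor p53 and its target genes were followed in mouse mammary glands and HER2/neu tumors. The set held 10 genes, chosen by symbol: Trp53 itself and the 9 targets Cdkn1a, Mdm2, Ccng1, Bax, Bbc3, Trp53inp1, Sesn2, Phlda3 and Zmat3. All 10 were among the 24421 genes of the count table, each had at least 67 counts in every library, and all 10 passed the filter on low counts in the 13-library fit (17135 genes tested) and in the 11-tumor fit (16870 genes tested).

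RNA was sequenced from 13 libraries of female mice of the FVB/N-TgN transgenic line 202Mul/J, which carry a rat HER2/neu cDNA under the mouse mammary tumor virus promoter (MMTV-HER2/neu) and form mammary tumors spontaneously. The genotype label read "Wild type" for every library, and ages at collection were not given. The groups were mammary glands of untreated mice (n = 2), primary tumors of untreated mice (n = 3), primary tumors of mice given stavudine (n = 3), tumors that had regrown under 17-DMAG (n = 3) and tumors that had regrown under 17-DMAG together with stavudine (n = 2). Stavudine, a nucleoside inhibitor of reverse transcriptase, was dissolved at 1 mg/mL in the drinking water, and the labels did not say for which animals it began before and for which after tumors appeared. 17-DMAG, an inhibitor of the chaperone HSP90, was injected at 20 mg/kg, and the recurrent tumors were still under it when collected. Each tumor library came from an individual tumor, so p-values measure the spread between single tumors.

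p53 is held at a low protein level by Mdm2, an E3 ubiquitin ligase that marks it for degradation. DNA damage, nucleotide shortage or oncogene signaling frees p53 from this control, and the protein then binds DNA and switches on genes that stop the cell cycle, promote cell death or adjust metabolism. Mdm2 is itself a target, which closes a feedback loop. Because p53 is regulated mainly as a protein, the RNA level of Trp53 and the RNA levels of its targets are separate readouts.

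The promoters of these genes were searched for the motif that p53 binds. p53 binds as a tetramer to pairs of a short motif, the p53 decamer, which reads the same on both strands. RefSeq promoter windows (GRCm38.p6), each from 250 bases before to 50 bases after a transcription start, were used for 8 of the 10 genes, all but Trp53inp1 and Zmat3, and 5 of these 8 (62.5%) held at least 1 match to the p53 decamer, compared with 2582 of 27025 symbols (9.55%) among all RefSeq promoters. The matched decamers are shown in capitals with 10 bases on each side, read 5′ to 3′ on the strand of the gene, because they are the letters in these windows that fit the motif.
Trp53 promoter, chr11:69580274-69580303, + strand, decamer starting 75 bases before the start: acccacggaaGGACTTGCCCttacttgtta
Cdkn1a promoter, chr17:29090896-29090925, + strand, 73 bases before the start: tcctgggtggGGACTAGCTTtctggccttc
Cdkn1a promoter, chr17:29090918-29090947, + strand, 51 bases before the start: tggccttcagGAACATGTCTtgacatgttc
Mdm2 promoter, chr10:117710925-117710954, − strand, 186 bases before the start: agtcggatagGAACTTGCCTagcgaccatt
Ccng1 promoter, chr11:40755452-40755481, − strand, 185 bases before the start: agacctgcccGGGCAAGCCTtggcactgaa
Bax promoter, chr7:45467080-45467109, − strand, 201 bases before the start: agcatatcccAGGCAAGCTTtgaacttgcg
Both Cdkn1a matches lay before the upstream of 2 RefSeq starts, at position 29090979 of chromosome 17, and the window of the other start at 29093769 held none. The windows of Bbc3, Sesn2 and Phlda3 held no match. A match describes letters in a window and is not a measured binding site.

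Compared per length of exon, Ccng1 was the most abundant member in the tumors, with a median of 20.9 CPM per kb (counts scaled by library size and TMM factor, per kilobase of exon) over the 11 tumors. Trp53 followed at 13.8, Trp53inp1 at 10.9, Mdm2 at 10.3 and Bax at 8.03 CPM per kb. Cdkn1a (3.41), Bbc3 (3.30), Zmat3 (2.57), Phlda3 (2.53) and Sesn2 (2.40 CPM per kb) formed the lower end. In GENCODE vM21 on GRCm38, Trp53 lies on chromosome 11 from 69580359 to 69591873, and Cdkn1a, which was the most variable of the 10, on chromosome 17 from 29090976 to 29100727. These reads were counted over exons, and 12.2% of the exon bases of Bax and 7.68% of those of Cdkn1a overlap other annotated genes. Neither overlapping gene was in the count table, and the one at Cdkn1a lies on the opposite strand.

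No member differed between groups past the threshold. Under edgeR's quasi-likelihood test with Benjamini-Hochberg adjustment over all genes, 0 of the 10 genes were called at an adjusted p under 0.05 in any of the 9 comparisons made, and DESeq2 and limma voom also called 0 in each. The members did vary, also between tumors of one group, as the plot of the members by library shows. The within-group SD on the log2 scale was 1.36 for Cdkn1a, 1.15 for Phlda3 and 0.15 for Mdm2, against a median of 0.34 over all genes. Over the 11 tumors, across groups, Cdkn1a spanned 29.2-fold from lowest to highest and Phlda3 14.0-fold. Mdm2 spanned 1.53-fold, against a median of 2.38-fold over all genes of the tumor fit.

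**Figure D1:**
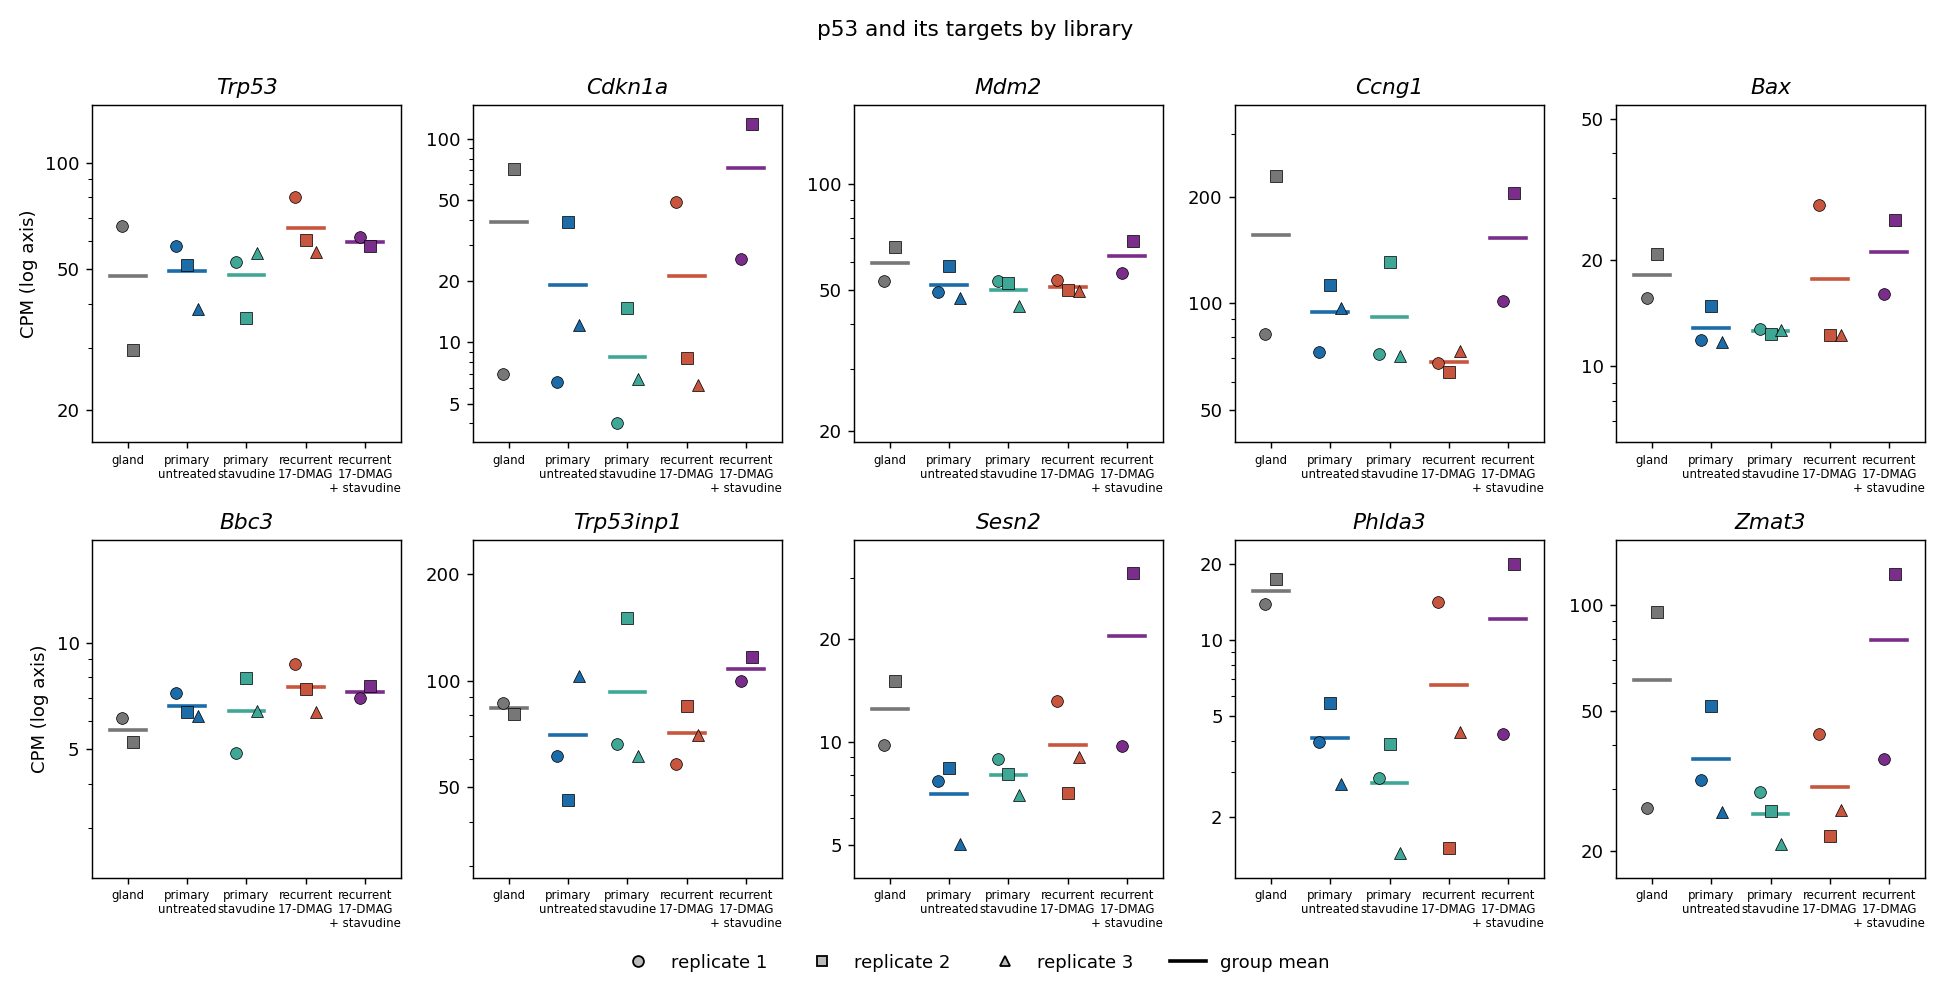
CPM of each of the 10 genes in the 13 libraries, on log axes, with 1 point per library (circle, square and triangle for replicates 1, 2 and 3), a bar at the group mean and colors for the 5 groups. Replicate 2 of the recurrent 17-DMAG plus stavudine tumors was the highest tumor for Cdkn1a, Mdm2, Ccng1, Sesn2, Phlda3 and Zmat3, while groups next to each other in the order of means overlapped in every panel.

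The regulators were steady across tumors. Trp53 measured 66.5 and 29.6 CPM (the same scaling, not per length) in the glands, 58.4, 51.6 and 38.6 CPM in primary untreated tumors, 52.4, 36.5 and 55.8 CPM in primary stavudine tumors, 80.0, 60.5 and 56.0 CPM in recurrent 17-DMAG tumors, and 61.6 and 58.1 CPM in recurrent 17-DMAG plus stavudine tumors. The glands differed from each other more than the tumors of any group did, and recurrent 17-DMAG replicate 1 was the highest library. Mdm2 measured 53.1 and 66.3 CPM in the glands, 49.5, 58.5 and 47.4 CPM in untreated, 53.1, 52.5 and 45.0 CPM in stavudine, 53.3, 50.1 and 49.8 CPM in recurrent 17-DMAG, and 55.8 and 69.0 CPM in recurrent 17-DMAG plus stavudine tumors. It was the steadiest member, with a within-group SD of 0.15 on the log2 scale, compared with a median of 0.34 over all genes. The highest Mdm2 value was again in replicate 2 of the last group.

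Of the cell cycle genes, Cdkn1a was far more uneven. Its within-group SD was 1.36 on the log2 scale, compared with 0.43 for Ccng1 and a median of 0.34 over all genes. Cdkn1a, which encodes p21, the inhibitor of cyclin-dependent kinases, measured 6.97 and 71.1 CPM in the glands, 6.37, 39.2 and 12.1 CPM in untreated, 4.03, 14.7 and 6.64 CPM in stavudine, 48.8, 8.40 and 6.19 CPM in recurrent 17-DMAG, and 25.7 and 118 CPM in recurrent 17-DMAG plus stavudine tumors. Each of the 5 groups held 1 library well above its others. Ccng1, which encodes cyclin G1, measured 81.6 and 229 CPM in the glands, 72.8, 113 and 96.7 CPM in untreated, 71.9, 131 and 70.9 CPM in stavudine, 67.6, 64.0 and 73.4 CPM in recurrent 17-DMAG, and 101 and 204 CPM in recurrent 17-DMAG plus stavudine tumors. The 3 recurrent 17-DMAG tumors lay below both tumors that had regrown with stavudine.

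The death genes split. Bax, an effector that permeabilizes the outer mitochondrial membrane, measured 15.6 and 20.8 CPM in the glands, 11.9, 14.9 and 11.7 CPM in untreated, 12.7, 12.4 and 12.7 CPM in stavudine, 28.6, 12.3 and 12.3 CPM in recurrent 17-DMAG, and 16.0 and 26.0 CPM in recurrent 17-DMAG plus stavudine tumors. Only recurrent 17-DMAG replicate 1 and recurrent 17-DMAG plus stavudine replicate 2 exceeded 20 CPM among the tumors. Bbc3, which encodes the BH3-only protein PUMA, stayed between 4.88 and 8.71 CPM over all 11 tumors and measured 6.14 and 5.25 CPM in the glands. Trp53inp1, a target that promotes autophagy and cell death, measured 86.5 and 80.8 CPM in the glands, 61.3, 46.2 and 103 CPM in untreated, 66.3, 151 and 61.3 CPM in stavudine, 58.3, 84.6 and 70.3 CPM in recurrent 17-DMAG, and 99.8 and 117 CPM in recurrent 17-DMAG plus stavudine tumors. Its highest tumor was primary stavudine replicate 2, not a recurrent one.

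The remaining targets act on growth signaling and RNA. Sesn2, a stress-induced inhibitor of mTORC1, measured 9.80 and 15.1 CPM in the glands, 7.69, 8.36 and 5.01 CPM in untreated, 8.91, 8.03 and 6.98 CPM in stavudine, 13.2, 7.08 and 9.02 CPM in recurrent 17-DMAG, and 9.72 and 31.1 CPM in recurrent 17-DMAG plus stavudine tumors. Phlda3, a repressor of Akt, measured 13.9 and 17.4 CPM in the glands, 3.94, 5.63 and 2.71 CPM in untreated, 2.85, 3.87 and 1.43 CPM in stavudine, 14.1, 1.50 and 4.32 CPM in recurrent 17-DMAG, and 4.26 and 20.0 CPM in recurrent 17-DMAG plus stavudine tumors. In 9 of the 11 tumors it lay below both glands. Zmat3, an RNA-binding regulator of splicing, measured 26.4 and 95.9 CPM in the glands, 31.9, 51.7 and 25.8 CPM in untreated, 29.4, 25.9 and 21.0 CPM in stavudine, 43.2, 22.0 and 26.0 CPM in recurrent 17-DMAG, and 36.6 and 123 CPM in recurrent 17-DMAG plus stavudine tumors. For all 10 genes, each group overlapped the next in the order of group means.

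Tumors were first set against the glands. Between primary untreated tumors and glands, 0 of 10 members were called, against 2.11% of all genes, and between all tumors and glands 0 of 10 against 10.4%. At an unadjusted p under 0.05 each comparison held 1 member, where the background was 24.5% and 29.6% of genes, and with 1 library left out each count ran from 0 to 3, with 3 without gland replicate 1 in both and 3 without recurrent 17-DMAG plus stavudine replicate 2 for all tumors. In both it was Phlda3, with a log2 fold change of −1.94 ± 0.84 (SE) for untreated tumors (adjusted p = 0.19, edgeR) and −1.52 ± 0.64 for all tumors (adjusted p = 0.145, edgeR). At the other end stood Bbc3, at 0.22 ± 0.26 and 0.28 on the log2 scale. The median over the members was −0.61 for untreated tumors and −0.24 for all tumors, compared with −0.02 for all genes in both. Leaving out gland replicate 1 brought 2 members past the threshold for all tumors, Trp53 at 0.94 (adjusted p = 0.0468, edgeR) and Ccng1 at −1.20 (adjusted p = 0.0323, edgeR), and leaving out recurrent 17-DMAG replicate 1 brought 1, Phlda3 at −1.81 (adjusted p = 0.0396, edgeR).

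The 2 glands were unlike each other. Cdkn1a, Ccng1 and Zmat3 were higher in gland 2 than in gland 1, and Trp53 was lower. In the same library the 7 milk protein genes summed to 733197 CPM, against 28045 in gland 1, and the TMM factor was 0.493, against 0.999 to 1.12 in the other 12 libraries. Markers of T and B cells summed to 174 CPM in gland 1 and 5.92 CPM in gland 2, and skeletal muscle markers to 6.71 and 1810 CPM. The part of these differences in the member values was not tested, and in bulk tissue fewer cells of a type cannot be told apart from less RNA per cell.

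Stavudine in the drinking water was compared with plain water in primary tumors. None of the 10 members was called, against 0% of all genes, and 0 of 10 had an unadjusted p under 0.05 where 3.76% of all genes did. The lowest value was that of Cdkn1a at −1.20 ± 0.98 (SE) on the log2 scale, and the highest that of Trp53inp1 at 0.39 ± 0.38, each with an adjusted p of 1 in edgeR. The median over the members was −0.06, compared with −0.03 over all genes. No member had groups that did not overlap, as 10.8% of all genes did. The Trp53inp1 value rested on stavudine replicate 2 and fell to −0.14 without it.

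Tumors that had regrown under 17-DMAG alone were compared with the same primary untreated tumors. Again 0 of 10 members were called, against 0% of all genes, and 0 of 10 had an unadjusted p under 0.05 where 9.69% of all genes did. The fold changes ran from −0.48 ± 0.31 (SE) for Ccng1 (adjusted p = 0.565, edgeR) to 0.69 ± 0.80 for Phlda3 (adjusted p = 0.741, edgeR) on the log2 scale, with a median of 0.14. The Phlda3 value turned to −0.48 without recurrent 17-DMAG replicate 1, the tumor with the highest Trp53, Bax and Bbc3. That tumor also carried the highest fibroblast markers, 5743 CPM summed over 8 genes, where the other tumors held 283 to 1904 CPM, and macrophage markers of 600 CPM, where the others held 163 to 304 CPM. The part of these cells in its values was not tested.

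**Figure D2:**
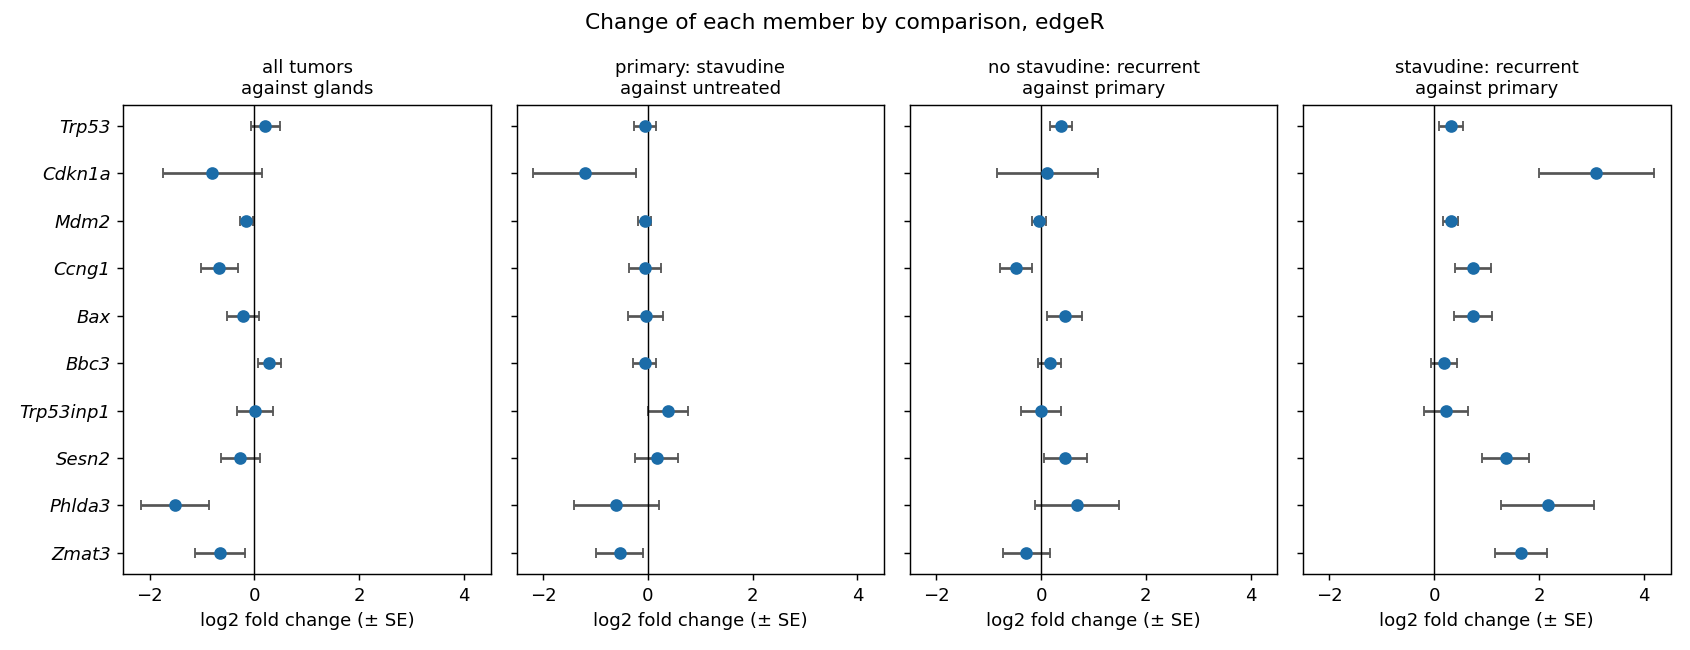
Log2 fold change of each member with its SE from edgeR, in 4 panels: all tumors against glands, stavudine against untreated primary tumors, and recurrent against primary tumors without and with stavudine. In the last panel all 10 points lie above 0, from 0.18 for Bbc3 to 3.09 for Cdkn1a, and none passed the adjusted threshold.

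The recurrent tumors that had regrown with stavudine gave the highest fold changes, of which none passed the threshold. Against primary stavudine tumors, 0 of 10 members were called, against 0% of all genes, but all 10 log2 fold changes were above 0, as were 51.8% of all genes. At an unadjusted p under 0.05, 4 members were higher, compared with 5.42% of all genes, but the count was 0 when recurrent 17-DMAG plus stavudine replicate 2 was left out, 7 when replicate 1 was, and 2 when either replicate 1 or replicate 3 of the primary stavudine tumors was. Cdkn1a stood at 3.09 ± 1.10 (SE) on the log2 scale (adjusted p = 0.441, edgeR), Phlda3 at 2.16 ± 0.89 (adjusted p = 0.472, edgeR), Zmat3 at 1.66 ± 0.49 (adjusted p = 0.346, edgeR) and Sesn2 at 1.36 ± 0.45 (adjusted p = 0.406, edgeR). Bbc3 was the lowest at 0.18 ± 0.24. In 7 members both recurrent tumors exceeded all 3 primary tumors, compared with 17.4% of all genes. Without recurrent 17-DMAG plus stavudine replicate 2 the fold changes were 1.60 for Cdkn1a, 0.64 for Phlda3, 0.52 for Zmat3 and 0.28 for Sesn2, and the median over the members fell from 0.74 to 0.31.

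Other gene lists moved with this comparison in both recurrent tumors. The 15 proliferation genes summed to 584 and 301 CPM in the recurrent tumors, below all 3 primary stavudine tumors at 755 to 1085 CPM. All 15 had log2 fold changes below 0, with a median of −1.08. At an unadjusted p under 0.05, 13 were lower, compared with 4.64% of all genes, although edgeR called 0. The 8 fibroblast markers summed to 1436 and 1904 CPM, above the primary range of 283 to 684 CPM, and the 8 macrophage markers to 304 and 277 CPM, above 163 to 183 CPM, with 8 of 8 genes above 0 in each list. The 8 luminal epithelial genes summed to 2577 and 1532 CPM, below 2791 to 3367 CPM, with 2 of 8 above 0. The 8 genes of the integrated stress response, a program that also induces Sesn2, summed to 363 and 566 CPM, above 288 to 357 CPM, with 6 of 8 above 0. Endothelial markers, at 120 and 199 CPM, lay at or above the top of the primary range of 82.7 to 120 CPM. The part of these shifts in the member values was not tested.

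The same 2 tumors were set against recurrent tumors without stavudine. No member was called, against 0% of all genes, and 3 members had an unadjusted p under 0.05 and were higher, where 3.46% of all genes were. The count was 0 without replicate 2 of the recurrent tumors with stavudine, 6 without recurrent 17-DMAG replicate 1 and 1 without its replicate 2 or 3. The 3 members were Ccng1 at 1.17 ± 0.34 (SE) on the log2 scale (adjusted p = 0.409, edgeR), Zmat3 at 1.40 ± 0.49 (adjusted p = 0.516, edgeR) and Sesn2 at 1.07 ± 0.45 (adjusted p = 0.609, edgeR). Cdkn1a had the highest value at 1.77 ± 1.06 and Trp53 the lowest at −0.12 ± 0.24. Without replicate 2 of the tumors with stavudine the values were −0.011 for Sesn2, 0.26 for Zmat3, 0.57 for Ccng1 and 0.28 for Cdkn1a, and the member median fell from 0.74 to 0.06.

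Averaged over both kinds of water, recurrent tumors were compared with primary tumors, and 0 of 10 members were called, against 0% of all genes. All 10 log2 fold changes were above 0, as were 50.3% of all genes, and 3 members were higher at an unadjusted p under 0.05, compared with 7.61% of all genes. Sesn2 stood at 0.91 ± 0.30 (SE) on the log2 scale (adjusted p = 0.313, edgeR), Bax at 0.60 ± 0.25 (adjusted p = 0.344, edgeR) and Phlda3 at 1.42 ± 0.60 (adjusted p = 0.351, edgeR). Cdkn1a had the highest value, 1.60 ± 0.73, and Trp53inp1 the lowest, 0.12. The interaction, which asks whether recurrence differed between the water arms, also called 0 of 10 against 0% of all genes, and 2 members were higher at an unadjusted p under 0.05, where 3.83% of all genes were. These were Zmat3 at 1.93 ± 0.66 (adjusted p = 0.538, edgeR) and Ccng1 at 1.22 ± 0.46 (adjusted p = 0.591, edgeR). Cdkn1a was the highest at 2.97 ± 1.45 and Trp53 the lowest at −0.07. A joint test of any difference among the 4 tumor groups called 0 of 10, against 0% of all genes, with 3 members at an unadjusted p under 0.05, where 8.54% of all genes were. Without recurrent 17-DMAG plus stavudine replicate 2 the counts at an unadjusted p under 0.05 were 0 in all 3 tests, and without any other single library they ran from 1 to 5. These contrasts share tumors and are not separate evidence.

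Individual tumors stood out more than groups did. When each target was scaled to its own mean and SD over the 11 tumors, the mean z-score of the 9 targets was 1.90 in recurrent 17-DMAG plus stavudine replicate 2 and 0.65 in recurrent 17-DMAG replicate 1. The other replicate with stavudine reached 0.28, primary stavudine replicate 2 0.25 and primary untreated replicate 2 0.20, and the remaining 6 tumors lay between −0.84 and −0.39. The first of these tumors was the highest for 6 members and the highest or second for 8, and recurrent 17-DMAG replicate 1 was the highest for 3 and the highest or second for 6. Trp53 itself was not raised in the tumor with the highest targets, where it measured 58.1 CPM against a tumor median of 56.0 CPM.

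**Figure D3:**
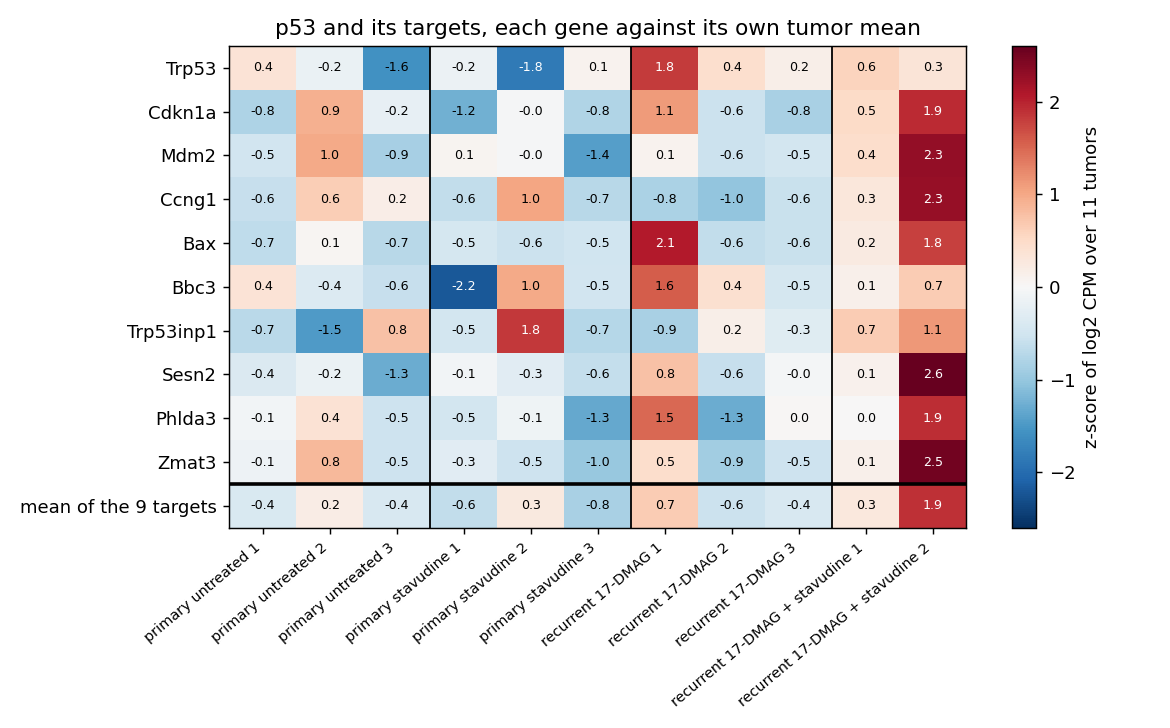
Z-score of log2 CPM of each gene over the 11 tumors (columns, grouped by the 4 tumor groups), with the mean of the 9 targets in the bottom row and red for values above the gene's own tumor mean. The last column, recurrent 17-DMAG plus stavudine replicate 2, had the highest mean at 1.90, and the column of recurrent 17-DMAG replicate 1 followed at 0.65.

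In recurrent 17-DMAG plus stavudine replicate 2 the 15 proliferation genes were at their lowest, 301 CPM summed, followed by the other tumor of that group at 584 CPM, while the remaining 9 tumors held 726 to 1211 CPM. Its 8 luminal epithelial genes, which mark mammary tissue, summed to 1532 CPM, compared with 2558 to 3367 CPM in the other tumors and 1934 and 2090 CPM in the glands, and its 8 skeletal muscle genes to 1650 CPM. Muscle markers summed to 1062 CPM in primary untreated replicate 1, the next highest tumor. The 8 genes of the integrated stress response summed to 566 CPM in that recurrent tumor and to 288 to 506 CPM in the others. The part of cell makeup and of the stress response in the member values was not tested.

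Many of the targets varied together across tumors. Over the 36 pairs of the 9 targets the median Pearson r of log2 CPM was 0.63, and 35 of the 36 were above 0. By permutation tests over the 11 tumors, adjusted over the 36 pairs, 17 pairs passed by Pearson's r and 8 by Spearman's rho. Mdm2 and Zmat3 were the closest pair, with r = 0.94 (permutation p = 9e-05, adjusted p = 0.00324) and rho = 0.92 (adjusted p = 0.00288), and r = 0.81 without the 2 tumors farthest from the Mdm2 median. Phlda3 and Zmat3 had r = 0.88 and rho = 0.92, and r = 0.81 without the 2 farthest tumors. Cdkn1a and Sesn2, with r = 0.73 (adjusted permutation p = 0.0231), fell to 0.11 without them, so that relation rested on those tumors.

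Pairs with Bbc3 or Trp53inp1 had lower r, a division chosen after the values were seen. The 21 pairs without them had a median r of 0.80, from 0.38 to 0.94, and the 15 pairs with at least 1 of them had a median of 0.23, with 0 passing the adjusted threshold. Without recurrent 17-DMAG plus stavudine replicate 2 the median of the 21 pairs was 0.62. Within the 6 primary tumors alone it was 0.60. Between deviations from the group means, which remove differences between groups, it was 0.75, but these deviations still include that replicate. It and the other tumor of its group deviate by equal and opposite amounts, so the 0.75 does not show the relation without it. Ccng1 passed the threshold with neither Bax nor Sesn2, at r = 0.38 and 0.60 over the 11 tumors and −0.12 and −0.14 without that replicate.

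**Figure D4:**
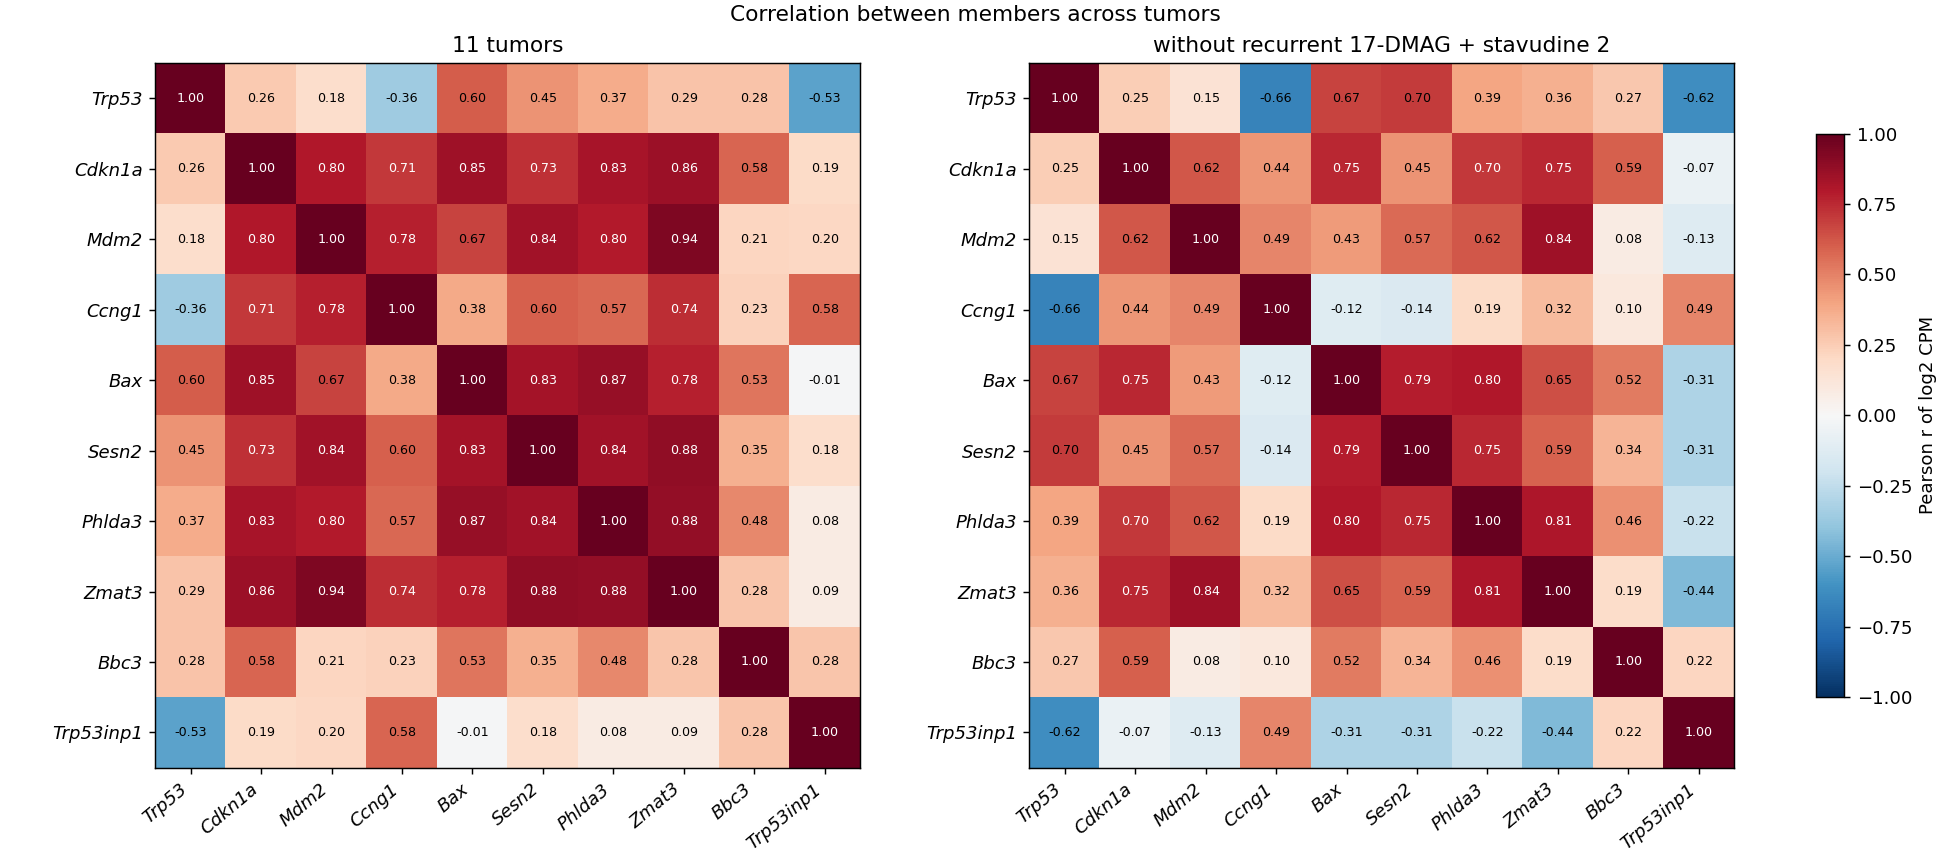
Pearson r of log2 CPM between the 10 genes across all 11 tumors (left) and without recurrent 17-DMAG plus stavudine replicate 2 (right), red for positive and blue for negative values. The 21 cells among Cdkn1a, Mdm2, Ccng1, Bax, Sesn2, Phlda3 and Zmat3 run from 0.38 to 0.94 on the left and from −0.14 to 0.84 on the right, where Ccng1 is below 0 with Bax and Sesn2.

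The level of Trp53 RNA did not track its targets past the threshold. Over the 11 tumors, r ran from −0.53 for Trp53inp1 to 0.60 for Bax, and the smallest adjusted permutation p over the 9 targets was 0.341, for Bax (raw p = 0.0378, rho = 0.37, r = 0.68 without the 2 tumors farthest from the Trp53 median). For Trp53inp1, r was 0.07 without those 2 tumors, primary untreated replicate 3 and primary stavudine replicate 2, so that value rested on them. Within the 6 primary tumors, which include both, r was −0.90. Between deviations from the group means, an alternative chosen after seeing the data that also includes both, r was −0.86. Cdkn1a gave r = 0.26 (rho = 0.20) and Mdm2 r = 0.18 (rho = 0.19), with adjusted permutation p of 0.496 and 0.588.

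The wider pathway was described from 16 regulators of p53 and 32 further targets. All tumors against glands was the comparison in which edgeR called any of them, 7 of 48, all lower in tumors, against 8.81% of all genes called lower and 10.4% called in either direction. The count was 13 with DESeq2, 3 with limma voom, 12 without gland replicate 1 or without recurrent 17-DMAG replicate 1, 3 or 4 without any other single tumor, and 0 without gland replicate 2. Of all 17135 genes tested, DESeq2 called 3242 in that comparison, limma voom 1542 and edgeR 1785. The 4 regulators called by edgeR were Trp73, a p53 family member (log2 fold change −2.89, adjusted p = 0.0451, at 0.91 and 0.64 CPM in glands and 0.46 CPM or less in tumors), Hipk2, a kinase that phosphorylates p53 (−1.14, adjusted p = 0.0179), Chek2, a DNA damage checkpoint kinase (−1.05, adjusted p = 0.0215), and Usp7, a deubiquitinase of Mdm2 and p53 (−0.50, adjusted p = 0.0371). The 3 targets were Steap3 (−2.18, adjusted p = 0.0404), Aen, an apoptosis-enhancing nuclease (−1.94, adjusted p = 0.049), and Dcxr (−0.91, adjusted p = 0.026). In gland 2, the milk-rich library, Aen measured 55.3 CPM, Steap3 96.6 CPM and Chek2 42.8 CPM, above gland 1 at 9.11, 35.1 and 19.4 CPM.

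Among tumor groups edgeR called 0 of the 48, and 15 of the 16 regulators passed the filter there. DESeq2 called at most 5 in a comparison, in the joint test, where it called 534 of all genes. Gadd45a, a target that acts in growth arrest and DNA repair, came nearest in recurrent 17-DMAG plus stavudine against primary stavudine tumors. It measured 10.5 and 18.4 CPM in the recurrent tumors and 2.65, 3.94 and 5.21 CPM in the primary ones. The groups did not overlap, as for 35.3% of all genes, and Gadd45a stood at 1.88 ± 0.35 (SE) on the log2 scale (adjusted p = 0.251, edgeR). Trp63, the p53 family member of basal epithelium, had the next smallest p in that comparison, at 3.14 ± 0.91 (adjusted p = 0.336, edgeR), and measured 6.71 and 86.4 CPM in the recurrent tumors and at most 8.56 CPM in the primary ones. Its high value was again in replicate 2, where the 8 basal and myoepithelial markers summed to 209 CPM, compared with 79.6 CPM in replicate 1. In recurrent 17-DMAG replicate 1 these markers summed to 250 CPM and Trp63 measured 23.4 CPM. The part of basal cells in the Trp63 values was not tested. Of the 32 further targets, 24 had log2 fold changes above 0 in that comparison, as did 51.8% of all genes. Their median was 0.51, compared with 0.01 over all genes. Summed, they reached 1439 CPM in recurrent replicate 2, of which Plk2 alone held 488 CPM. In recurrent replicate 1 they summed to 792 CPM, within the 667 to 840 CPM of the primary stavudine tumors. Ak1 was the lowest-p gene of these lists in stavudine against untreated primary tumors, at −2.55 ± 0.70 (adjusted p = 1, edgeR), and primary untreated replicate 2 held 242 CPM of it where the other 10 tumors held 15.8 to 50.4 CPM. Sfn, which encodes the cell cycle inhibitor 14-3-3 sigma, stood at 1.46 ± 0.42 in recurrent 17-DMAG against untreated tumors (adjusted p = 0.509, edgeR), with 27.9, 11.5 and 10.5 CPM against 8.24, 4.32 and 5.33 CPM.

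The other pathway genes with the smallest p in a comparison without calls were as follows, none past the adjusted threshold in edgeR. In untreated tumors against glands they were Dcxr at −1.15 on the log2 scale (adjusted p = 0.056) and Hipk2 at −1.22 (adjusted p = 0.0656). DESeq2 called 10 of the 48 listed pathway genes in that comparison, and 2352 of the 17135 genes tested. There edgeR called 0 of the 48, and 361 of all genes. Fas, a death receptor, stood at 0.94 in stavudine against untreated primary tumors (adjusted p = 1), and Ak1 at −2.48 in recurrent 17-DMAG against untreated tumors (adjusted p = 0.509). The low values of Ak1 in both comparisons share the untreated tumors, of which replicate 2 held the 242 CPM. In recurrent tumors with against without stavudine, Dcxr stood at 0.76 (11.1 and 14.4 CPM against 8.41, 7.08 and 7.28 CPM, adjusted p = 0.328). Chek2 stood at −0.72 there (a group mean of 11.1 CPM with stavudine against 18.4 CPM without it, adjusted p = 0.409). For both genes the groups did not overlap, as for 21.5% of all genes. Averaged over water, Gadd45a stood at 1.01 and Sfn at 1.23 in recurrent against primary tumors (adjusted p = 0.287 for both). In the interaction Gadd45a stood at 1.74 and Chek2 at −0.98 (adjusted p = 0.471 for both), and in the joint test Gadd45a and Ak1 had adjusted p of 0.503 and 0.518.

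Genes other than the 10 members, including those of the wider lists, were ranked by Pearson r between log2 CPM and the mean z-score of the 9 targets over the 11 tumors. Of 16860 genes ranked, 27 had r over 0.9. The 5 highest were Plekhb2 (r = 0.95, rho = 0.95), Hipk3 (r = 0.94, rho = 0.91), Fgf12 (r = 0.94, rho = 0.91), Gprin3 (r = 0.94, rho = 0.86) and Fam84a (r = 0.94, rho = 0.82). Each was highest in recurrent 17-DMAG plus stavudine replicate 2, and without that tumor r was 0.90, 0.90, 0.85, 0.95 and 0.79. Hipk3 spanned only 206 to 260 CPM, while Fam84a spanned 11.3 to 107 CPM. These values are a description of 11 tumors that include 1 library standing apart.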

How the data were processed

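The authors isolated total RNA from frozen tissue, depleted ribosomal RNA, prepared dUTP libraries, aligned reads with STAR (GRCm38) and assigned them to genes by featureCounts (Subread 1.6.2). The strand setting and the handling of multiply mapped reads were not given in the sources used here. The deposited values were raw counts, with totals of 39921388 to 56887708 per library, so that 3 counts equalled 0.0587 to 0.107 CPM. The 13 libraries were grouped by their titles. Counts were tested with edgeR 4.0.16 (filterByExpr, TMM, robust quasi-likelihood fit, R 4.3.3), gland contrasts on 13 libraries and tumor contrasts on 11, with Benjamini-Hochberg adjustment over all genes and a threshold of 0.05. DESeq2 1.42.0 and limma 3.58.1 were alternatives. Correlations used log2 CPM with a prior count of 2 and permutation tests of 100000 resamples. Tests were two-sided. Only the edgeR test was tried on simulated data, which had less spread between libraries than these data. No 2 libraries of a group agreed within counting noise.

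The members and gene lists were chosen with earlier results of these data known. All 10 members are named in every comparison. From the wider lists a comparison names up to 6 called genes with the largest absolute log2 fold change and, where none was called, the 2 with the smallest p. The gene Usp7 and values of single genes beyond this rule were added after their values were seen.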

Additional observations from a re-analysis of the deposited data

How the results depend on the processing

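The count of 0 called members held in all 9 comparisons under other normalization, no filter, DESeq2, limma voom, only the groups compared (in the 5 comparisons of 2 groups), and without milk, muscle and adipocyte genes. The exception was leaving out single libraries in all tumors against glands, where the count ran from 0 to 2. Replicate numbers did not pair the tumors (mean correlation of deviations −0.05 for 15 same-number pairs and 0.02 for 30 others), and with the replicate block 0 members were called.

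Leaving out 1 library turned the sign of 40 of the 80 member fold changes, in 63 of 920 values. Other alternatives turned 4 of the 80. Among the member fold changes given in the text above, leaving out 1 library turned the sign of 6, and the cause was not tested. On the log2 scale the ranges were −0.14 to 0.77 for Trp53inp1 in stavudine against untreated tumors, −0.48 to 1.19 for Phlda3 in recurrent 17-DMAG against untreated tumors, −0.22 to 0.040 for Trp53 and −0.011 to 1.67 for Sesn2 in recurrent tumors with against without stavudine, −0.0044 to 0.39 for Trp53inp1 in recurrent against primary tumors, and −0.26 to 0.079 for Trp53 in the interaction. The r of Trp53 and Bbc3 ran from −0.042 to 0.65, and was −0.016 between deviations from group means, an alternative chosen after seeing the data.

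Over all genes DESeq2 called 17 to 534 in the tumor comparisons where edgeR called 0, and without recurrent 17-DMAG plus stavudine replicate 1 edgeR called up to 141. Against glands the count of 361 for untreated tumors became 4 with the block, 2352 with DESeq2, 0 with only these groups and 0 to 3381 with 1 library left out, and the 1785 for all tumors became 371, 3242 and 535 to 4255. The 7 listed pathway genes called there became 0 with the block. Cdkn1a and Phlda3 had within-group SDs of 1.36 and 1.15 on the log2 scale, which limits what 2 or 3 tumors a group can show.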
